A study of Homo sapiens with 11 samples.

Results

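The regions described here are the H3K27ac peaks of Ishikawa cells given dexamethasone and estradiol together (the combination), set against the H3K27ac peaks of the same cells given dexamethasone alone. They are the whole of both deposited peak lists, 20873 peaks with the combination and 15192 with dexamethasone, or 36065 of the 90458 peaks in the 8 lists of the series. A peak was matched to the other list when the intervals overlapped by at least 1 bp. Combination peaks with no dexamethasone peak are called appearing, dexamethasone peaks with no combination peak are called vanishing, and the rest are called kept.

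Ishikawa is a human endometrial adenocarcinoma cell line, grown before treatment in phenol red-free medium with charcoal/dextran-treated serum, which holds little steroid hormone. The combination was 100 nM dexamethasone with 10 nM estradiol, and the comparison group had 100 nM dexamethasone without estradiol, both for 8 h per the treatment label. The H3K27ac lists of 10 nM estradiol alone and of the vehicle DMSO, also at 8 h, and the estrogen receptor (ER) and glucocorticoid receptor (GR) lists after 1 h of hormone, were used to place these peaks. The treatment protocol text gives 1 h for all samples, so the H3K27ac time rests on the label of each sample. Each group is 1 library, the labels do not say whether it pools cultures, and no difference between treatments could be tested. The 95% intervals are exact Clopper-Pearson intervals over peaks, cover counting error only, and treat neighbouring peaks as independent, which they are not.

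Acetylation of lysine 27 on histone H3 is written by the coactivators p300 and CBP and marks active promoters and enhancers. ER and GR are nuclear receptors that bind DNA when they hold their steroid, estradiol for ER and glucocorticoids such as dexamethasone for GR, and both recruit such coactivators. Estradiol drives proliferation of the endometrial epithelium, and ER and GR are known to meet at shared enhancers in several cell types.

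The depth of both libraries was similar, with 9657258 usable tags for the combination and 9034395 for dexamethasone. Other properties differed. Duplicate tags made up 22% of the combination library and 33% of the dexamethasone library. The fragment length that the peak caller estimated was 280 bp for the combination and 232 bp for dexamethasone, and in each list this was also the width of the narrowest peak. With 1 library a side, the part of these properties in the results below cannot be told apart from that of estradiol.

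Most dexamethasone regions stayed when estradiol was added, and many further regions were called. Of 20873 combination peaks, 10626 (50.9%, 50.2 to 51.6) overlapped a dexamethasone peak and 10247 (49.1%, 48.4 to 49.8) appeared. Of 15192 dexamethasone peaks, 13097 (86.2%, 85.7 to 86.8) overlapped a combination peak and 2095 (13.8%, 13.2 to 14.3) vanished. The kept peaks of the lists differ in number because 2229 combination peaks spanned more than 1 dexamethasone peak, up to 12 of them, while 501 dexamethasone peaks spanned more than 1 combination peak. Counted in bases, the combination covered 20.3 Mb and dexamethasone covered 12.4 Mb, of which 10.8 Mb was shared. Of the 9.43 Mb covered with the combination alone, 5.58 Mb lay in appearing peaks and 3.85 Mb lay in kept peaks that reached further than their dexamethasone counterpart. Of the 1.56 Mb covered with dexamethasone alone, 0.753 Mb lay in vanishing peaks and 0.804 Mb beside kept ones.

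The match near its threshold was examined as well. Among kept dexamethasone peaks, 51 overlapped the combination list by fewer than 50 bp. Among vanishing peaks, 70 lay within 50 bp of a combination peak. Counting peaks within 1 kb of each other as matched gave 38.9% of combination peaks as appearing and 94.0% of dexamethasone peaks as kept. Requiring 50% of both peaks to overlap gave 68.7% appearing and 42.9% kept, so the size of each class depends on how a match is defined.

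Appearing peaks were mostly from the middle and lower ranks of the combination list. The authors' pileup (fragment coverage at the summit) was ranked within each list on a scale where 100 is the highest. Their median rank in the combination list was 35.2, compared with 68.5 for kept peaks, and 59 of the 10247 ranked above 90. Among the 10% of combination peaks with the highest pileup, 97.3% (96.5 to 97.9) overlapped a dexamethasone peak. That share was 53.3% in the seventh decile, and it lay between 31.4% and 32.8% in each of the 4 lowest deciles. The ranks are positions within lists of different length and say nothing about a change of level at one region.

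Vanishing peaks came from the weak end of the dexamethasone list. The median rank was 17.9 for vanishing peaks and 56.0 for kept ones, and no vanishing peak ranked above 87.8. In the 10% of dexamethasone peaks with the lowest pileup, 55.1% (52.6 to 57.6) were kept. In the 10% with the highest pileup, all 1520 were kept.

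**Figure D1:**
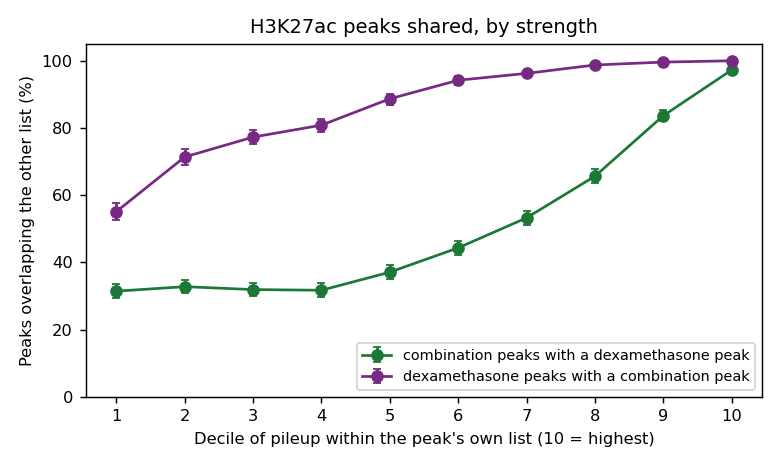
Share of H3K27ac peaks that overlap the other list (vertical axis, %), by decile of pileup within the peak's own list (horizontal axis, 10 is the highest), for combination peaks and dexamethasone peaks; bars are exact 95% intervals over peaks. The combination peaks run between 31.4% and 97.3%, and the dexamethasone peaks between 55.1% and 100%.

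Peaks were wider with the combination. The median width was 445 bp for appearing peaks, 874 bp for kept peaks of the combination list, 521 bp for kept peaks of the dexamethasone list and 305 bp for vanishing peaks. Where 1 combination peak matched 1 dexamethasone peak (7558 pairs), the medians were 745 bp with the combination and 474 bp with dexamethasone. The combination peak was the wider in 77.3% of pairs, by a median difference of 169 bp (quartiles 18 and 398 bp), and in 70.4% the difference exceeded the 48 bp by which the estimated fragment lengths differ. The summits of a pair lay a median of 72 bp apart. Of the kept dexamethasone peaks, 61.7% lay wholly inside combination peaks, while 11.6% of kept combination peaks lay wholly inside dexamethasone peaks.

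The strongest kept region was the same in both lists. On chromosome 3 (79974748 to 79990952, hg19 here and throughout) a combination peak of 16205 bp with a fold enrichment of 85.2 over the local control background overlapped a dexamethasone peak of 16287 bp with 87.5. The authors' fold enrichments are set side by side only as each list's own value, since the lists were scaled separately. Next among kept combination peaks came chromosome 1 15300197 to 15308891 and chromosome 18 9415565 to 9420496. Then followed a peak at 139031437 to 139039479 on chromosome 4 and another at 194798781 to 194805713 on chromosome 3. The chromosome 1 region was 1 peak of 8695 bp with the combination (fold enrichment 47.0) and 4 peaks of 4962 bp in total with dexamethasone (highest 24.0). All 5 of these regions had at least 1 combination ER site within 1 kb.

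Among the 5 strongest kept peaks of the dexamethasone list, 2 had no receptor site of any list within 1 kb. These were chromosome 2 68270048 to 68276130, with fold enrichments of 68.6 with the combination and 69.5 with dexamethasone, and chromosome 3 79776537 to 79781200, with 52.8 and 49.0 in the same order. The remaining ones were the chromosome 3 region already given, chromosome 18 43206822 to 43222564, and chromosome 14 45082542 to 45092342. The last of these carried 2 GR sites with the combination and 2 with dexamethasone, and no ER site with the combination. The widest kept combination peaks spanned 22641 bp on chromosome 6 (133556994 to 133579634) and 20469 bp each on chromosome 1 (82266692 to 82287160) and chromosome 4 (4489866 to 4510334). The first of these was broken into 4 dexamethasone peaks of 22155 bp in total.

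Most appearing regions were also called in cells that had no dexamethasone, as were most kept ones. Of the 10247 appearing peaks, 8966 (87.5%, 86.8 to 88.1) overlapped a peak of the estradiol list and 7147 (69.7%, 68.8 to 70.6) overlapped a peak of the vehicle list. Kept combination peaks did so at 86.2% and 83.7%. The estradiol share of appearing peaks was thus near that of kept peaks, and their vehicle share was lower. Appearing peaks fell into 4 patterns. The most frequent was presence with both estradiol and vehicle, at 7037 peaks (68.7%), so that dexamethasone alone was the treatment without a call. A further 1929 (18.8%) were in the estradiol list and not in the vehicle list. Another 1171 (11.4%) were in neither, and 110 (1.07%) were in the vehicle list and not in the estradiol list. In kept combination peaks these patterns made up 80.3%, 5.94%, 10.4% and 3.41%, in the same order.

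The vehicle library was the deepest of the 4, the estradiol library having 10852521 usable tags and the vehicle library 18508574, and the part of depth in these shares was not tested.

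Vanishing peaks were mostly held by the dexamethasone list alone. Of the 2095, 413 (19.7%, 18.0 to 21.5) overlapped an estradiol peak and 493 (23.5%, 21.7 to 25.4) overlapped a vehicle peak. Peaks in neither, 1452 in number, made up 69.3% (67.3 to 71.3) of the class. Kept dexamethasone peaks were in the estradiol list at 87.8% and in the vehicle list at 83.5%. More than 50% of the vanishing peaks lay beside acetylated chromatin of the combination: 56.5% (54.4 to 58.7) were within 1 kb of a combination peak and 73.5% within 5 kb. Appearing peaks lay within 1 kb of a dexamethasone peak at 20.7% and within 5 kb at 30.4%.

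The vehicle and estradiol peaks behind the appearing regions were of middling strength in their own lists. The 7346 estradiol peaks that met appearing peaks and no kept peak had a median pileup rank of 59.5 in the estradiol list. The 6610 vehicle peaks that did so had a median rank of 52.2 in the vehicle list. Estradiol and vehicle peaks that met kept peaks had medians of 71.0 and 68.1, and those that met no combination peak had medians of 26.6 and 25.1.

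The 4 patterns of appearing peaks differed in how often ER lay nearby. Across all combination peaks, 9.02% had a combination ER site within 1 kb. Among appearing peaks that were also in the estradiol list and not in the vehicle list, 511 of 1929 did (26.5%, 24.5 to 28.5). Among those in neither list it was 156 of 1171 (13.3%, 11.4 to 15.4). Among those in both lists it was 189 of 7037 (2.69%, 2.32 to 3.09), the lowest of the 3 patterns with over 1000 peaks. Thus the appearing peaks absent from the vehicle list had ER nearby at shares above that of all combination peaks, and the larger group that the vehicle list also held lay below it.

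The combination GR list had the same order of these 3 patterns as ER, though with overlapping intervals between its higher pair, and the dexamethasone GR list had another. Across all combination peaks, 5.7% had a dexamethasone GR site within 1 kb and 5.76% had a combination GR site. The dexamethasone GR share was 6.75% (5.38 to 8.34) in appearing peaks found in neither the estradiol nor the vehicle list, 1.76% (1.22 to 2.45) in those of the estradiol list alone, and 0.625% (0.455 to 0.838) in those of both. The combination GR share was 8.88% (7.31 to 10.7), 10.9% (9.58 to 12.4) and 0.824% (0.626 to 1.06) over the same patterns. Appearing peaks of the estradiol pattern thus had a combination GR site nearby more often than a dexamethasone GR site, with intervals apart.

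**Figure D2:**
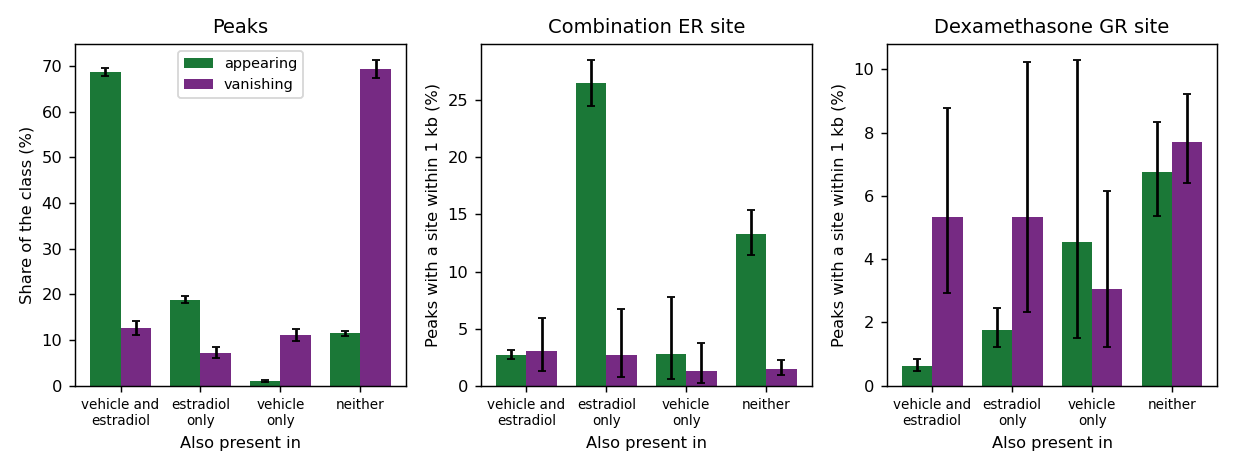
Appearing and vanishing peaks by their presence in the estradiol and vehicle lists (horizontal axis): share of the class in each pattern (left), share with a combination ER site within 1 kb (middle) and share with a dexamethasone GR site within 1 kb (right), all in %; bars are exact 95% intervals. Appearing peaks pile up in the pattern of vehicle and estradiol (68.7%), vanishing peaks in the pattern of neither (69.3%), and the ER share peaks at 26.5% in appearing peaks shared with estradiol.

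Taken over whole classes, receptor sites were scarcest where peaks vanished for ER and where peaks appeared for dexamethasone GR. A combination ER site lay within 1 kb of 859 appearing peaks (8.38%, 7.85 to 8.94), 9.64% (9.08 to 10.2) of kept combination peaks, and 36 vanishing peaks (1.72%, 1.21 to 2.37), where the share over all dexamethasone peaks was 9.55%. The 859 appearing peaks shared 608 ER sites, since 1 site can lie near several peaks. For the estradiol ER list the shares were 10.97% of appearing, 13.0% of kept combination and 2.63% of vanishing peaks, against 12% of all combination and 12.9% of all dexamethasone peaks.

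For the dexamethasone GR list, 162 appearing peaks had a site that close (1.58%, 1.35 to 1.84), as did 9.66% (9.11 to 10.2) of kept combination peaks and 141 vanishing peaks (6.73%, 5.69 to 7.89). Over all dexamethasone peaks the share was 9.12%, and over kept dexamethasone peaks it was 9.51% (9.01 to 10.0). The order of vanishing and kept dexamethasone peaks turned at longer distances. Within 5 kb the shares were 17.8% (16.2 to 19.5) of vanishing and 14.4% (13.8 to 15.0) of kept dexamethasone peaks. Within 10 kb they were 24.3% (22.5 to 26.2) and 17.7% (17.1 to 18.4). The combination GR list gave 3.66% (3.30 to 4.04) of appearing, 7.78% of kept combination and 4.15% (3.34 to 5.10) of vanishing peaks, and 7.66% of all dexamethasone peaks. The intervals of appearing and vanishing peaks overlapped for this list. Where an appearing peak did have a combination GR site, ER was usually there too: 305 of 375 (81.3%, 77.0 to 85.1) also had a combination ER site. In kept combination peaks this was 458 of 827 (55.4%, 51.9 to 58.8), and in vanishing peaks it was 14 of 87 (16.1%, 9.09 to 25.5). No receptor site of any of the 4 lists lay within 1 kb of 87.6% of appearing peaks and 90.9% of vanishing peaks. Most kept peaks had none either, at 80.2% in the combination list and 79.0% in the dexamethasone list.

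The higher ER share of appearing than of vanishing peaks held at most settings and turned at 1 of them. When 50% of both peaks had to overlap, 9.21% of 14349 appearing and 10.4% of 8668 vanishing peaks had an ER site. That rule moves to the unmatched side many dexamethasone peaks that lie inside a wider combination peak.

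**Figure D3:**
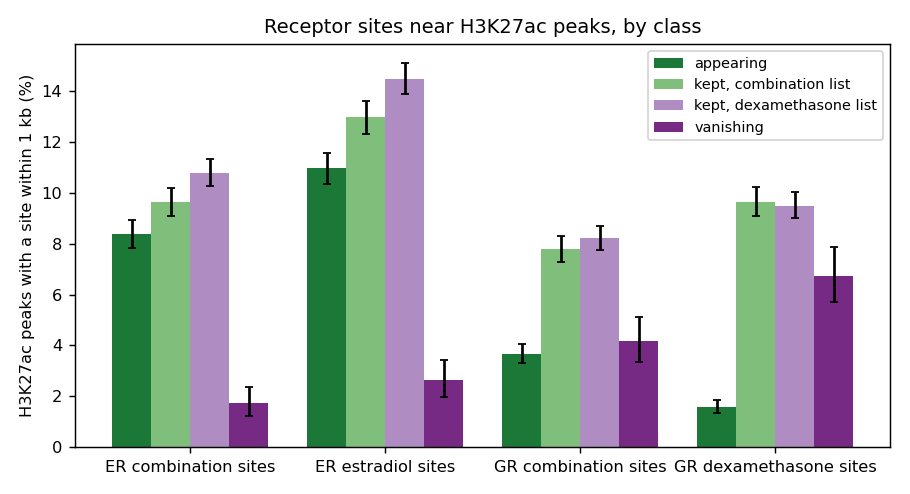
Share of H3K27ac peaks with a receptor site within 1 kb (vertical axis, %) for each receptor list, in appearing peaks, kept peaks of the combination list, kept peaks of the dexamethasone list and vanishing peaks; error bars are exact 95% intervals. Vanishing peaks are lowest for both ER lists (1.72% and 2.63%), and appearing peaks are lowest for both GR lists (3.66% and 1.58%), with an interval that overlaps that of vanishing peaks for combination GR.

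Wider peaks met receptor sites more often, so the classes were also compared at similar width. At 400 to 600 bp, 6.34% (5.52 to 7.25) of appearing and 2.44% (1.80 to 3.24) of kept combination peaks had a combination ER site. At 1000 to 2000 bp the shares were 22.0% (18.7 to 25.6) and 9.83% (8.74 to 11.01), and above 2000 bp they were 71.8% (61.0 to 81.0; 61 of 85 peaks) and 28.8% (26.8 to 30.9). The intervals were apart in each of the 6 width bins except the narrowest, up to 300 bp. Within a bin the ER share was therefore higher in appearing than in kept combination peaks, although over all widths it was lower. Kept peaks of the dexamethasone list, binned by their own narrower widths, had ER shares of 7.34% at 400 to 600 bp and 16.9% at 1000 to 2000 bp.

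The GR lists differed in how they followed width in the appearing class. The combination GR share was 2.24% (1.49 to 3.22) up to 300 bp, 11.7% (9.18 to 14.6) at 1000 to 2000 bp and 45.9% (35.02 to 57.04) above 2000 bp. In kept combination peaks it was 4.00% (2.08 to 6.88), 6.87% (5.95 to 7.88) and 20.6% (18.7 to 22.5) in the same bins. The dexamethasone GR share lay between 1.099% and 2.35% in all 6 bins of appearing peaks. In kept combination peaks the dexamethasone GR share was 5.50% at its lowest and 21.6% above 2000 bp. In vanishing peaks the dexamethasone GR share was 4.73% (3.51 to 6.23) up to 300 bp and 8.40% (6.10 to 11.2) at 300 to 400 bp, where kept dexamethasone peaks had 3.49% (2.81 to 4.28) and 4.82% (3.95 to 5.82). In these 2 bins, vanishing peaks thus had a dexamethasone GR site nearby at least as often as kept ones, with intervals apart at 300 to 400 bp. The combination GR list did not show this, with overlapping intervals in both bins. Its shares were 3.55% (2.50 to 4.88) of vanishing and 4.12% (3.38 to 4.96) of kept dexamethasone peaks up to 300 bp. At 300 to 400 bp they were 4.51% (2.85 to 6.75) and 4.40% (3.56 to 5.36).

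**Figure D4:**
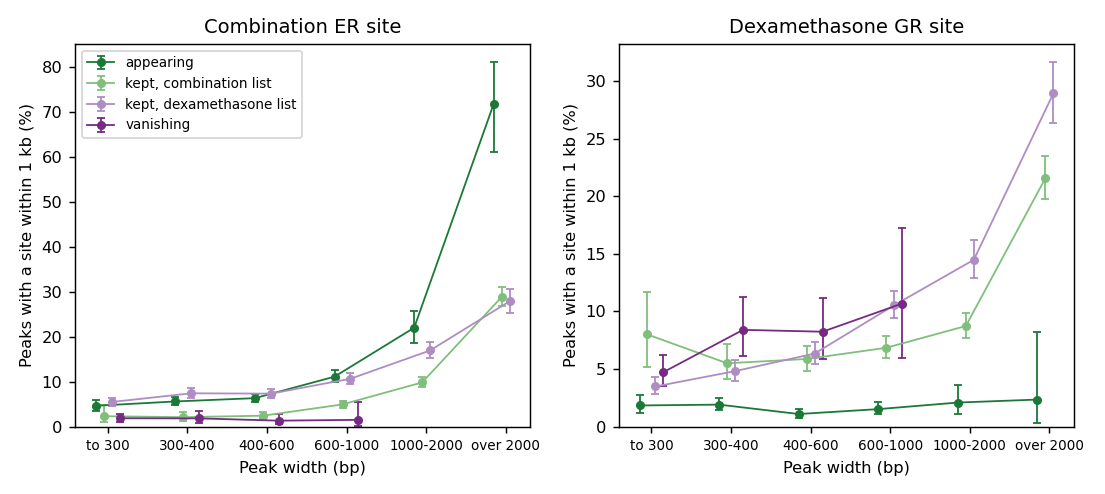
Share of peaks with a combination ER site (left) or a dexamethasone GR site (right) within 1 kb (vertical axes, %), by peak width in bp (horizontal axes), for the 4 classes; bars are exact 95% intervals, bins with fewer than 20 peaks are left out, and points are shifted sideways for legibility. The ER share of appearing peaks reaches 71.8% above 2000 bp, and their dexamethasone GR share stays between 1.099% and 2.35%.

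The strongest appearing regions were broad, all 5 had ER sites with the combination, and 4 of them had GR sites with it. The strongest, on chromosome 2 (233237974 to 233242600), was a peak of 4627 bp with a fold enrichment of 39.1 with the combination and 50.9 in the estradiol list, and it had no peak with dexamethasone or vehicle. It had 1 ER site in each ER list and 1 GR site with the combination, and none with dexamethasone. A region on chromosome 2 (100251698 to 100258420, 6723 bp) had fold enrichments of 47.1 with the combination, 50.3 with estradiol and 9.31 with vehicle. Its vehicle peak was 515 bp wide, so the vehicle call covered a small part of the region.

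The next regions of that class lay on chromosome 16 (88985868 to 88993465, 7598 bp), chromosome 12 (284142 to 292837, 8696 bp, the widest appearing peak) and chromosome 12 (132283241 to 132287104, 3864 bp). Each was a single peak with estradiol and had narrower vehicle peaks. The first had 2 combination ER and 2 combination GR sites, the second had 3 ER sites and no GR site, and the last had 1 of each. None of these 5 appearing regions had a dexamethasone GR site within 1 kb. Ranked among appearing peaks with both a combination ER and a combination GR site, the fifth was chromosome 11 69948750 to 69955580, 6831 bp wide, with 3 ER sites and 3 GR sites of the combination, 3 peaks in the estradiol list and none with vehicle.

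Appearing peaks that no other H3K27ac list held were narrower and weaker. The 1171 had a median width of 344 bp and a median pileup rank of 10.2. The strongest was chromosome 10 73425594 to 73426617 (1024 bp, fold enrichment 24.0), with 1 site in each of the 4 receptor lists. It was followed by peaks at 181588694 to 181589385 of chromosome 2 (fold enrichment 18.1) and 117850302 to 117851233 of chromosome 3 (14.1). The others were 8326271 to 8328276 of chromosome 20 (17.3) and 83587422 to 83588127 of chromosome 15 (17.2). Both ER lists placed a site within 1 kb of all 5, and the combination GR list did so for 4. The chromosome 10 and chromosome 15 regions also had dexamethasone GR sites, 1 and 2 of them.

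The strongest vanishing regions were small and mostly without receptor sites. The strongest was chromosome 7 79682741 to 79683082, 342 bp wide with a fold enrichment of 16.7 and a pileup rank of 78.2. It and a neighbouring vanishing peak at 79681450 to 79682436 (987 bp, 18.7) had 1 GR site of each GR list within 1 kb and no ER site, and neither was in the estradiol or vehicle list. The other strong ones had no receptor site within 1 kb. On chromosome 2 they were 235274990 to 235275406 (fold enrichment 14.8), 1659411 to 1660097 (10.5) and 129145265 to 129145610 (15.4), and on chromosome 18 there was 21407580 to 21408305 (19.3). The chromosome 2 peaks at 1659411 and 129145265 overlapped estradiol peaks of 6133 and 4668 bp, with fold enrichments of 31.4 and 50.1. Vehicle peaks of 2899 and 262 bp, with fold enrichments of 10.9 and 7.77, overlapped those at 235274990 and 129145265.

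Among vanishing peaks found with dexamethasone alone, the remaining strong ones were chromosome X 106975663 to 106976174 (16.6) and chromosome 6 113767982 to 113768370 (17.1), both without a receptor site. The widest vanishing peaks measured 1645 bp (chromosome 12, 65704997 to 65706641), 1460 bp (chromosome 11, 15788404 to 15789863) and 1280 bp (chromosome 1, 218597225 to 218598504). The chromosome 11 peak overlapped a vehicle peak of 3032 bp with a fold enrichment of 21.2.

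Some appearing peaks lay near each other, though most runs held a single peak, and ER sites were found near most of the longest runs. Joined across gaps of up to 5 kb, they formed 7654 runs, of which 7484 held no dexamethasone peak. Of the 5709 runs of a single peak, 3.91% (3.42 to 4.44) had a combination ER site within 1 kb. The share was 11.1% (9.54 to 12.9) for 1430 runs of 2 peaks, 26.98% (21.6 to 32.9) for 252 runs of 3, 46.6% (33.3 to 60.1) for 58 runs of 4 and 71.4% (53.7 to 85.4) for 35 runs of 5 or more. The median span grew with it, at 434 bp for single peaks and 9101 bp for runs of 5 or more, and the part of span in this order was not tested. The share with a combination GR site had the same order, at 1.89% (1.55 to 2.28), 4.196% (3.22 to 5.37), 14.3% (10.2 to 19.2), 25.9% (15.3 to 39.04) and 40.0% (23.9 to 57.9) for runs of 1, 2, 3, 4 and 5 or more peaks. The share with a dexamethasone GR site lay between 1.47% and 5.16%.

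The longest runs are named after their values were seen. A run of 11 appearing peaks covered chromosome 1 19677996 to 19695098, with 1 combination ER site, 6 estradiol peaks and 4 vehicle peaks. A run of 9 covered chromosome 22 45885465 to 45901145, with 2 combination ER sites, 1 combination GR site, 6 estradiol peaks and 2 vehicle peaks. Of the 7 runs of 7 peaks, 4 overlapped no vehicle peak and had combination ER sites or estradiol ER sites within 1 kb, and 1 (chromosome 3, 194818187 to 194829217) had neither vehicle peaks nor a receptor site of any list.

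Seen from the receptor lists, H3K27ac calls at ER sites were more frequent with the combination. Of the 2382 combination ER sites, 1208 (50.7%, 48.7 to 52.7) overlapped H3K27ac with the combination and 739 (31.0%, 29.2 to 32.9) overlapped it with dexamethasone. With the combination and not with dexamethasone there were 483 sites, and the reverse held for 14. The estradiol and vehicle H3K27ac lists overlapped 53.4% and 36.4% of the same ER sites. Over whole lists the combination covered 20.3 Mb and dexamethasone 12.4 Mb, and 53.5% of combination bases were shared. The part of this wider coverage in the ER shares was not tested. In the strongest 25% of ER sites the shares were 68.3% (64.4 to 72.01) for combination H3K27ac and 34.4% (30.6 to 38.4) for dexamethasone H3K27ac. The weakest 25% of ER sites gave 42.9% (38.8 to 46.9) and, for dexamethasone H3K27ac, 31.3% (27.6 to 35.2). The dexamethasone share thus varied little with ER strength, between 28.0% and 34.4%, and the combination share was highest at the strongest sites.

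The ER sites were also divided by the GR lists. At 455 of them GR was called in the combination but not in dexamethasone, and 66.4% (61.8 to 70.7) of these overlapped combination H3K27ac, whereas 33.0% (28.7 to 37.5) overlapped dexamethasone H3K27ac, while the estradiol and vehicle lists gave 66.2% and 38.5%. At 304 ER sites with GR under both treatments combination H3K27ac covered 72.04% (66.6 to 77.0) and dexamethasone H3K27ac covered 60.2% (54.5 to 65.7). The estradiol and vehicle lists gave 64.5% and 56.9% there. At 1564 ER sites with no GR site the combination gave 40.9% (38.4 to 43.3) and dexamethasone gave 23.3% (21.2 to 25.4). At the remaining 59 ER sites GR was called in dexamethasone but not in the combination. There the combination gave 81.4% (69.1 to 90.3) and dexamethasone gave 71.2% (57.9 to 82.2), with overlapping intervals. The estradiol and vehicle lists gave 84.7% and 83.1% at these 59 sites. Counting H3K27ac within 1 kb kept the same order in the first of these groups, at 75.8% (71.6 to 79.7) and 45.5% (40.9 to 50.2). In the second group the order was also the same, at 80.6% (75.7 to 84.9) and 74.0% (68.7 to 78.9), but the intervals overlapped. The groups also differed in ER strength. The median of the authors' −log10 q was 57.3 in the first group, 28.9 in the second and 22.8 at sites with no GR. At the 59 sites with GR in dexamethasone only it was 16.7. The part of ER strength in these shares was not tested.

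Over the whole GR lists H3K27ac calls were also more frequent with the combination than with dexamethasone. The combination H3K27ac list covers more bases, as given above. Of the 1628 combination GR sites, 47.7% (45.2 to 50.1) overlapped combination H3K27ac and 33.7% (31.4 to 36.1) overlapped dexamethasone H3K27ac. The estradiol and vehicle H3K27ac lists overlapped 42.9% and 33.3% of them. Of the 1815 dexamethasone GR sites, 43.9% (41.6 to 46.2) overlapped the combination list and 36.9% (34.7 to 39.2) the dexamethasone list. Within 1 kb these were 54.2% (51.9 to 56.5) and 52.8% (50.5 to 55.1). The estradiol and vehicle lists overlapped 39.7% and 37.2% of the dexamethasone GR sites, so the dexamethasone share was near that of vehicle. In the strongest 25% of combination GR sites the shares were 57.0% (52.03 to 61.9) for combination H3K27ac and 42.01% (37.2 to 47.0) for dexamethasone H3K27ac. The intervals overlapped in some subsets. At the 454 strongest dexamethasone GR sites (the strongest 25%), 45.6% (40.9 to 50.3) overlapped combination H3K27ac and 38.3% (33.8 to 43.0) overlapped dexamethasone H3K27ac. Within 1 kb these shares were 55.1% and 53.1%. At 723 GR sites called under both treatments and without a combination ER site, the combination list covered 31.7% (28.3 to 35.2) and the dexamethasone list 28.8% (25.5 to 32.2). Within 1 kb the shares at these sites were 43.2% with combination H3K27ac and 43.3% with dexamethasone H3K27ac.

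ER summits lay off the H3K27ac summit in appearing and in kept combination peaks, and the part of peak width in these distances was not tested. The 184 combination ER summits inside appearing peaks were a median of 333 bp from the H3K27ac summit, in peaks with a median width of 1438 bp. The 796 inside kept combination peaks were 537 bp away, in peaks of 4097 bp. Vanishing peaks held 2 combination ER summits and 12 dexamethasone GR summits. Of the 859 appearing peaks with a combination ER site within 1 kb, 334 overlapped the site itself.

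The classes were unevenly spread over the chromosomes. Appearing peaks made up 64.9% (61.3 to 68.4) of combination peaks on chromosome 16, 59.3% on chromosome 19, 58.2% on chromosome 22 and 57.3% on chromosome 17, against 49.1% over all. The share was 38.5% (35.7 to 41.5) on chromosome 4, the lowest, and 39.96% on chromosome 18. Vanishing peaks ran the other way, with 4.85% to 7.01% of dexamethasone peaks on chromosomes 22, 19, 16 and 17 and 20.3% and 19.6% on chromosomes 8 and 4, the highest. Across the 23 chromosomes Spearman's rho between both shares was -0.75, a description over points that share the same pair of libraries. On chromosome 16, 73.8% of appearing peaks were also in the vehicle list, and on chromosome 19 this was 77.4%. The base composition of these regions was not analysed here, and its part in this order was not tested.

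**Figure D5:**
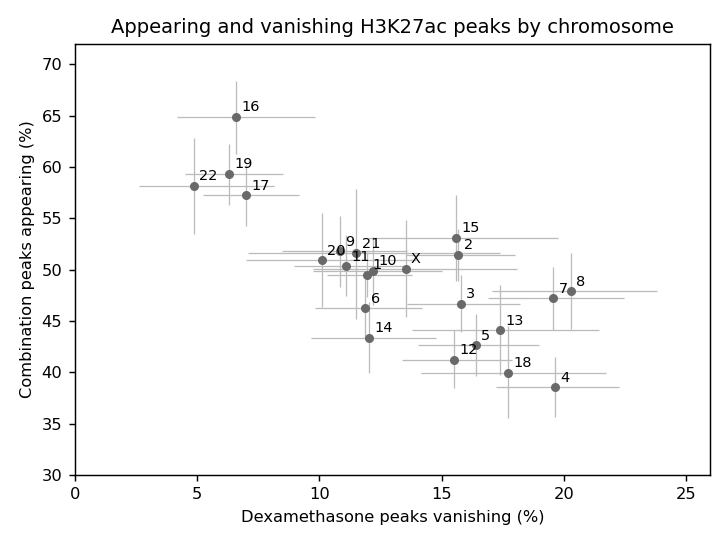
Share of combination peaks that appear (vertical axis, %) against the share of dexamethasone peaks that vanish (horizontal axis, %), 1 point per chromosome with its name; bars are exact 95% intervals, and both axes are linear, with the vertical one not starting at 0. Chromosomes 16, 17, 19 and 22 sit at the upper left, with 57.3% to 64.9% appearing and 4.85% to 7.01% vanishing.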

How the data were processed

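ChIP-seq peak lists of Ishikawa cells were used as deposited. The submitters' processing notes name Bowtie 1.1.2, hg19 and MACS2 2.1.0.20140616. MACS2 compared each library, per the file headers, with a control at a p cutoff of 1e-10, keeping 1 tag per position and scaling the larger library towards the smaller. Fold enrichments and ranks of different lists are not on one scale. The pileup is the authors' signal (scaled fragment coverage at the summit), peak significance is the authors' −log10 of the p-value and q-value, and fold enrichment is the authors' ratio of pileup to local control background. These were used only within a list.

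Overlaps, distances, widths and exact 95% intervals were computed with Python 3.11.15, pandas 2.3.3 and scipy 1.17.1, and the overlap code was tested on simulated data. Receptor sites were counted within 1 kb. Named regions are the 5 of highest −log10 q in each class and in 3 subsets, plus the 3 widest of each class. Classes, lists and settings were chosen with earlier results of these data known. The gene reference at hand is of another build than hg19, so gene names and sequences are left out. Peaks were recomputed under other matching rules, strength limits, receptor distances and a minimum width.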

Additional observations from a re-analysis of the deposited data

How the results depend on the processing

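The 7 shares given here were recomputed under alternatives, and the others were not. Of 61 recomputed values, 49 moved beyond the counting interval while 12 stayed within it. The causes were not tested, except that stricter or looser matching moves peaks between classes by construction. Combination peaks appearing and dexamethasone peaks kept came to 68.7% and 42.9% when 50% of both peaks had to overlap, 38.9% and 94.0% within 1 kb, 39.7% and 77.7% with lists of equal length, 44.8% and 90.2% with peaks joined within 1 kb, and 28.5% and 96.7% when only the stronger 50% of peaks were classed. With both lists cut to their stronger 50%, 85.3% were kept. Leaving out peaks under 280 bp, the narrowest combination peak, was chosen after seeing the data and gave 55.3% and 89.8%.

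Combination ER sites within 1 kb of appearing and vanishing peaks came to 9.21% and 10.4% with 50% overlap, where the order turned. The same pair was 9.05% and 0.878% within 1 kb, 10.5% and 3.58% with both lists cut, 6.91% and 0.948% with joined peaks, 12.8% and 3.23% with the stronger 50% classed, 3.26% and 0.286% for sites overlapping the peak, 17.2% and 13.0% for sites within 10 kb, and 5.47% and 0.621% for the stronger 50% of receptor sites. With equal lists it was 9.49% of appearing peaks.

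Combination GR sites near appearing peaks gave 4.77% with 50% overlap, 5.45% with both lists cut, 4.23% with equal lists, 3.002% with joined peaks, 6.23% with the stronger 50% classed, 1.43% overlapping, 9.60% within 10 kb and 1.91% for the stronger sites. Dexamethasone GR sites near vanishing peaks gave 10.03% with both lists cut, 10.9% with the stronger 50% classed, 0.955% overlapping, 24.3% within 10 kb and 3.29% for the stronger sites. Within 10 kb the share of kept dexamethasone peaks was 17.7%. Appearing peaks found in the vehicle list made up 55.9% with 50% overlap, 75.5% within 1 kb, 86.8% with both lists cut, 78.9% with equal lists, 74.6% with joined peaks and 84.0% with the stronger 50% classed.

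No paired analysis was possible because each group is 1 library with no replicate number, and leaving out a library would empty its group. Duplicates and fragment length differ between the libraries, whose depth is similar, and cannot be told apart from treatment.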
